A study of Drosophila melanogaster with 12 samples.

Results

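The fat body of control Drosophila melanogaster larvae was described from 6 of the 12 RNA sequencing libraries of the series, the 6 that carried the r4-Gal4 driver over a wild type background. r4-Gal4 is a transgene from which larval fat body cells make Gal4, a transcription activator of yeast, so the control animals carried the driver but no RNAi construct. All 6 libraries came from fat bodies taken from larvae 96 h after egg laying, with no other treatment in the labels. The titles numbered them 2, 3, 5, 6, 7 and 8, and those numbers name the libraries here (control 2 to control 8). The wild type strain, the sex of the larvae and the number of animals in a library were not given, nor was it said whether the replicates were separate cultures, so the spread between libraries may be partly technical. The members were chosen by genotype label alone, no value from the RNAi libraries was used, and every statement is a description of 1 group without a test. Levels are TPM, the number of transcripts of a gene among 1000000; depth is unknown, and n = 6 libraries for every mean ± SD.

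The fat body is the insect organ that takes the place of liver and adipose tissue. Its cells store triglyceride and glycogen, and they secrete most haemolymph proteins: storage hexamers taken back up before metamorphosis, lipoproteins that carry diacylglycerol, clotting and immune proteins, collagen IV for basement membranes, and peptide signals that report nutrient state to the brain and ring gland. In a feeding larva of the last instar the cells are large, polyploid and rich in ribosomes and rough endoplasmic reticulum.

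The tissue label was checked against 18 fat body markers, all of which were in the table and 17 of which averaged 1 TPM or more. Summed over the list they reached 51214 TPM in control 2, 45453 in control 3, 101139 in control 5, 59790 in control 6, 46897 in control 7 and 112877 in control 8. The list was led by the larval serum proteins Lsp1beta, Lsp1gamma and Lsp2 and by Adh (alcohol dehydrogenase). Lsd-1, a perilipin on lipid droplets, averaged 1480 ± 318 TPM, and the fat body GATA factor gene srp averaged 25.8 TPM. The exception was Fbp1, which encodes the receptor that later takes larval serum protein back into the cells: it stood at 0.202 to 0.361 TPM in 5 libraries and at 1.22 in control 8. Fbp2, a second fat body protein gene, ranged from 27.5 TPM in control 7 to 319 in control 8.

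Markers of other tissues were low in most libraries and high in 2 of them. Summed over the other-tissue lists they took 1.95% of the TPM in control 2 and 1.46% in control 3, against 0.741 to 1.046% in the other 4. In control 2 the 18 muscle markers reached 3632 TPM, against 316 to 873 elsewhere, and the 25 disc and cuticle markers 7923 TPM, against 568 to 2011; without control 2 the means of these lists were 618 and 1262 TPM. In control 3 the 23 midgut markers reached 10118 TPM, against 950 to 2540, and their mean without control 3 was 1803 TPM. Salivary gland markers, nearly all from ng1, ng2, ng3 and CG14265, were lowest in control 3 (673 TPM) and highest in control 8 (3972 TPM), while 7 of the 17 stayed under 1 TPM in every library. Testis markers were highest in control 2 (870 TPM), then control 5 (473) and control 7 (371), and lowest in control 6 (137). The male dosage compensation RNA roX1, read here as lncRNA:roX1, was present in every library at 15.2 to 54.4 TPM. Hemocyte markers summed to 113 to 300 TPM, mostly from Pxn, a peroxidasin that also belongs to the basement membrane list, and Hml was at 1.0 to 4.6 TPM. Nervous system, trachea, ring gland and oenocyte lists stayed at or below 159 TPM. The part of these tissues in the values that follow was not tested beyond leaving libraries out, and here, as in any bulk sample, fewer cells of a type and less RNA per cell cannot be told apart.

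**Figure D1:**
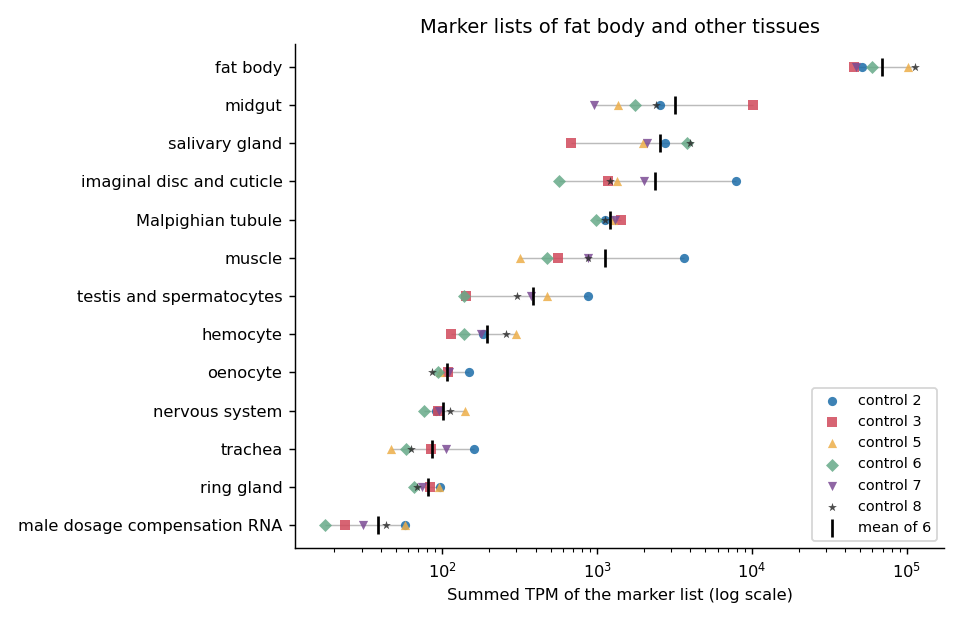
Summed TPM of each marker list (log axis) in the 6 control libraries, 1 symbol per library, with the mean as a black tick. The fat body list lies at 45453 to 112877 TPM, control 2 stands apart in the muscle (3632) and disc and cuticle (7923) lists, and control 3 in the midgut list (10118).

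The libraries also differed by transcript length. Among genes that averaged 10 TPM or more, the 24 whose transcripts exceed 8000 bases deviated from their own means by a median of 0.75 in control 5 and 0.52 in control 8 on the log2(TPM + 1) scale, and by -0.46 to -0.15 in the other 4. For the 240 genes with transcripts of up to 500 bases the order was turned, with 0.13 in controls 2 and 7 and -0.13 and -0.15 in controls 5 and 8. Control 5 held the highest value for 103 of the 114 genes with transcripts over 5000 bases. Long transcripts are thus read with this trend beside them, and its part in any single value was not tested.

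**Figure D2:**
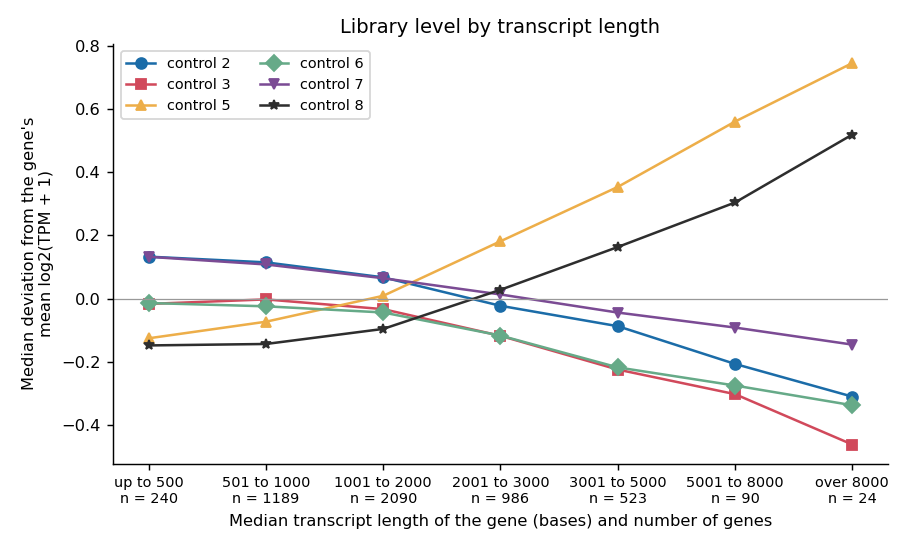
Median deviation of each control library from the gene's own mean, in log2(TPM + 1), for genes that averaged 10 TPM or more, grouped by median transcript length; the number of genes is under each group. Control 5 climbs to 0.75 and control 8 to 0.52 above 8000 bases, where control 3 falls to -0.46.

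Between 8684 genes (control 6) and 10325 genes (control 2) reached 1 TPM in a library. Expression was concentrated: 112 to 134 genes held 50% of the TPM of a library and 1521 to 2130 genes held 90%, and 5 genes passed 10000 TPM in each library, 4 of them the same in all 6 (Nplp2, Lsp1beta, Lsp1gamma and RpL41). By mean, 184 genes reached 1000 TPM, and the 30 most abundant held 25.96% of the TPM. Of the 184, 79 encode cytosolic ribosomal proteins, 24 subunits of oxidative phosphorylation, 9 translation factors and 7 enzymes of sugar metabolism.

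The most abundant transcript was Nplp2, annotated as a neuropeptide-like precursor of 119 codons and listed here with the haemolymph lipid carriers. It stood at 59264 TPM in control 2, 62540 in control 3, 58407 in control 5, 64986 in control 6, 70012 in control 7 and 56187 in control 8, a mean of 61899 ± 5050 TPM or 6.19% of all TPM, and it was first in all 6 libraries. Lsp1beta and Lsp1gamma, subunits of the storage hexamer larval serum protein 1, followed at means of 27793 and 25331 TPM. RpL41, a ribosomal protein of 25 codons, averaged 18228 ± 1203 TPM. CG2444, a coding gene of 114 codons with no other name in the table, averaged 11424 ± 2159 TPM and was the last of the 5 genes with a mean above 10000; it was at 7841 TPM in control 8, where Adh took its place.

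Below these came eEF1alpha1, which brings aminoacyl-tRNA to the ribosome, at 6473 ± 1177 TPM, and IM33, an immune-induced molecule of 82 codons, at 5979 ± 853 TPM. CG31775 and CG42586 each had 5932 TPM with the same value in every library, and both values count in the library total. The 2 were thus not told apart, and their sum belongs to either gene or to both. Their places in the order, and whether either passed 10000 TPM, are uncertain. Adh averaged 5898 ± 2761 TPM, with 11124 TPM in control 8 and 3733 to 6135 in the others. ATPsynC, the ring subunit of the ATP synthase, averaged 5660 ± 537 TPM. Most of the next 19 places belonged to ribosomal proteins, with RpS27A first at 5225 TPM, interrupted by Lsp2 at 4050 ± 2128 TPM and the ADP/ATP translocase gene sesB at 3829 ± 330 TPM.

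Only part of the order was the same in every library. Nplp2 exceeded Lsp1beta, RpL41 exceeded CG2444, and CG2444 exceeded eEF1alpha1 in 6 of 6 libraries. Lsp1beta exceeded Lsp1gamma in 5, control 8 being the exception, and Lsp1gamma exceeded RpL41 in 4, controls 3 and 7 being the exceptions. Of 29 neighbouring pairs among the 30 genes, only 5 kept their order in all 6 libraries. Another 9 pairs were split 3 to 3 and 8 held in 4 libraries, so most neighbours could not be ranked against each other beyond their spread. Many of these were pairs of ribosomal protein genes. Others split 3 to 3 were eEF1alpha1 with IM33, IM33 with CG31775, CG42586 with Adh, ATPsynC with RpS27A and sesB with RpL31. Lists of the 100 most abundant genes made in single libraries shared 87 genes across all 6 and 89 to 96 between any 2.

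**Figure D3:**
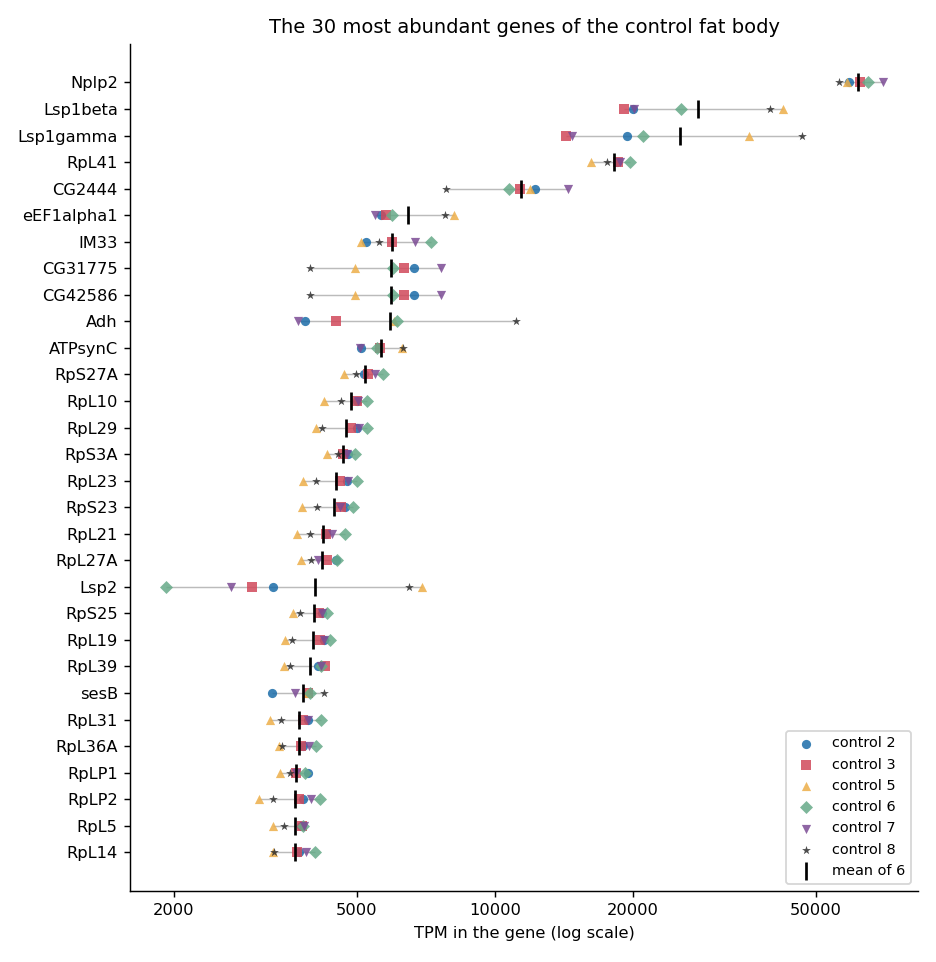
TPM (log axis) of the 30 genes with the highest mean in the control fat body, 1 symbol per library and a black tick for the mean. Nplp2 lies at 56187 to 70012 TPM in all 6 libraries; Lsp1beta, Lsp1gamma, Lsp2 and Adh have the widest ranges, and the ribosomal protein genes the narrowest.

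Genes were sorted by symbol into 35 lists, each gene in 1 list. Cytosolic ribosomal proteins took 25.8 ± 1.62% of the TPM, haemolymph lipid carriers 6.53 ± 0.418%, nuclear-encoded subunits of oxidative phosphorylation 5.96 ± 0.242% and storage proteins 5.76 ± 2.55%. Translation factors held 2.77 ± 0.195%, sugar metabolism 2.47 ± 0.226% and the endoplasmic reticulum and secretory route 2.35 ± 0.175%. Detoxification, lipid synthesis, mitochondrial carriers and immunity held between 1.18 and 1.48% each, and every other list was under 1%. The 11974 genes in no list held 31.5 ± 1.20%. The spread differed by list: the coefficient of variation (CV, the SD as a percent of the mean) of the share over the 6 libraries was 4.06% for oxidative phosphorylation and 44.2% for storage proteins.

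**Figure D4:**
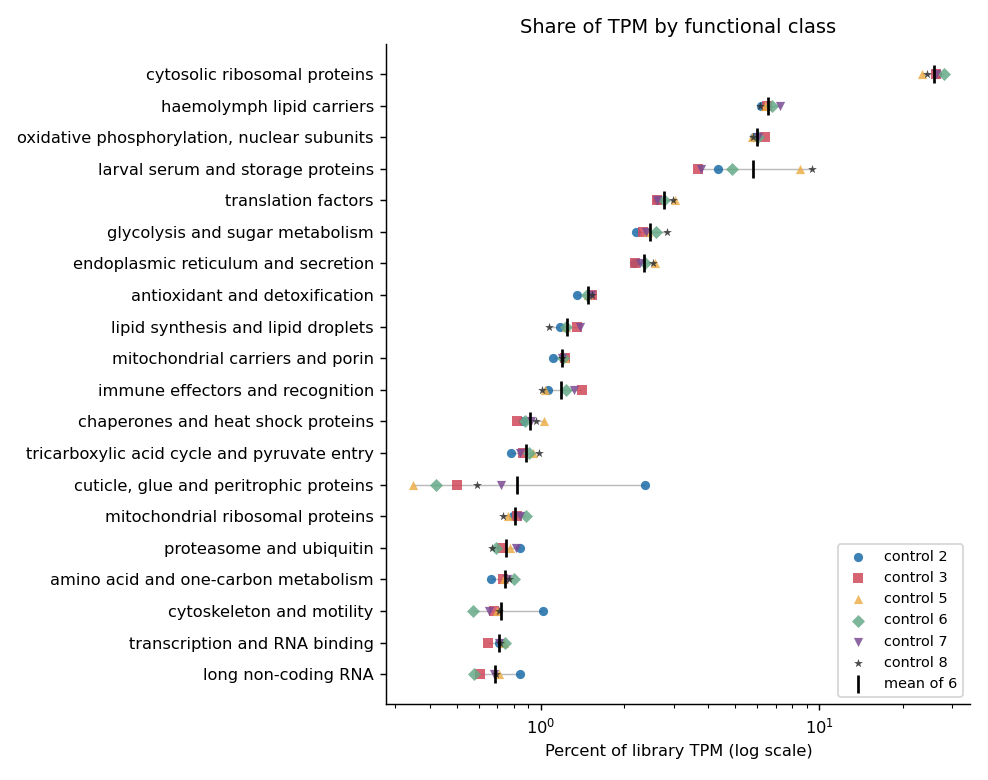
Percent of library TPM (log axis) in the 20 largest functional lists, 1 symbol per control library and a black tick for the mean. Ribosomal proteins lie at 23.4 to 27.99%, storage proteins spread from 3.66 to 9.41%, and the cuticle list is at 2.37% in control 2 against 0.348 to 0.723% in the others.

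Storage proteins were among the most abundant and least even products. The storage list held 4.32% of the TPM in control 2, 3.66% in control 3, 8.56% in control 5, 4.87% in control 6, 3.76% in control 7 and 9.41% in control 8. Controls 5 and 8 thus lay above the other 4 with a gap between 4.87 and 8.56%. Lsp1beta stood at 19965, 19111, 42377, 25447, 20125 and 39730 TPM in controls 2, 3, 5, 6, 7 and 8. Lsp1gamma stood at 19414, 14314, 35762, 21083, 14710 and 46700 TPM in the same order. Both genes were highest in controls 5 and 8, and their ratio stayed between 0.851 and 1.37.

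Lsp2, which forms a storage hexamer of its own, had a CV of 52.5%, close to the 51.6% of Lsp1gamma, and with median-ratio scaling the order of these was turned (45.9 and 48.0%). Its level was 3289, 2964, 6951, 1924, 2664 and 6506 TPM in controls 2, 3, 5, 6, 7 and 8, and its rank in a library ran from 7 in control 5 to 112 in control 6. Lsp1alpha, the remaining Lsp1 subunit, was far lower than its partners at 80.9 to 803 TPM, and Lsp1gamma exceeded it by 58.1-fold in control 8 to 182-fold in control 7. The Lsp transcripts are 2391 to 2677 bases long, and genes in their length group (up to 3000 bases) deviated by medians of only -0.12 to 0.18. Scaled to remove the median deviation of their length group, Lsp1beta still ranged 1.86-fold and Lsp1gamma 2.85-fold over the libraries, against 2.22-fold and 3.26-fold before. Of the yolk protein genes, which belong to the adult female fat body, Yp3 averaged 11.5 TPM and Yp1 and Yp2 averaged 0.184 and 0.105 TPM.

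Among lipid carriers Nplp2 supplied 94.8% of the TPM of the list. Npc2g and Npc2h, members of the family of secreted sterol-binding proteins, averaged 1223 ± 124 and 273 ± 24.1 TPM with CVs of about 10.2 and 8.85%. The gene for the main lipophorin apolipoprotein, apolpp, behaved otherwise. It was at 328 TPM in control 2, 206 in control 3, 3113 in control 5, 161 in control 6, 200 in control 7 and 2707 in control 8, so that 2 libraries lay far above the other 4, and its mean of 1119 TPM was 720 without control 5.

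The apolpp transcript is 10375 bases long, and long transcripts as a group were high in the same libraries, by medians of 0.75 and 0.52 on the log2 scale. Its own deviations there were 2.60 and 2.39, and after scaling within its length group it still ranged 9.47-fold. Apoltp, the lipid transfer particle gene, has a 13330-base transcript and ran only from 68.3 to 207 TPM, a range of 1.503-fold after that scaling. Mtp, which loads lipid onto these particles in the endoplasmic reticulum, averaged 196 ± 34.7 TPM. Heat shock protein gene Hsp70Aa showed a like split, with 44.0, 18.6, 508, 12.8, 81.5 and 403 TPM in controls 2, 3, 5, 6, 7 and 8, and a mean of 178 TPM that was 112 without control 5; it is one of several near-identical copies, so its own level is uncertain, it was chosen after its values were seen, and its relation to apolpp was not tested.

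Listed secreted products were summed over 224 genes. These were the storage, lipid carrier, small carrier, matrix, inhibitor, signal and chitinase lists, plus IM33, the ferritins and Tsf1. Mtp, LpR1, LpR2, Megalin, Plod, PH4alphaEFB and dlp were left out, but other enzymes of the chitinase and matrix lists stayed in. Immune genes other than IM33, proteases and genes in no list were not counted, so the sum is partial. This sum was drawn up after the levels were seen. It held 14.7 ± 2.38% of the TPM, from 12.5% in control 3 to 17.9% in control 8. Nplp2 and the storage proteins made up most of it: the other 214 genes held 2.73 ± 0.214%, and the CV of their sum was 7.84%. The evenness is that of the TPM sum: as a share of nucleotides the same 214 genes held 3.62 to 6.84%, with a CV of 27.7%.

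Obp99c, of the odorant-binding family of small soluble carriers, averaged 1985 ± 234 TPM and supplied 74.3% of its list, in which 12 of 76 genes averaged 1 TPM or more. The clotting protein gene fon, listed with the protease inhibitors, averaged 1851 ± 271 TPM. The serpin gene Spn43Ab followed at 664 ± 42.9 TPM and the Kazal-type gene Kaz1-ORFB at 456 ± 59.5 TPM. The chitinase-like imaginal disc growth factors were led by Idgf4 at 1057 ± 175 TPM, Idgf6 at 794 ± 79.3 and Idgf2 at 316 ± 26.8. Iron storage was represented by both ferritin chains, Fer2LCH at 594 ± 81.3 TPM and Fer1HCH at 552 ± 73.3, whereas transferrin gene Tsf1 averaged 26.6 TPM.

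Basement membrane genes took 0.600 ± 0.118% of the TPM. SPARC, a collagen-binding glycoprotein, averaged 1678 ± 206 TPM. The collagen IV chains Col4a1 and vkg averaged 1478 ± 423 and 779 ± 227 TPM, and their ratio was 1.82 to 2.02 in every library although each ranged about 2-fold. Both were highest in control 5, at 2146 and 1131 TPM, and lowest in control 2, at 1050 and 519. Their transcripts measure 6000 and 6376 bases; after scaling within the length group their ranges were 1.29-fold and 1.42-fold. trol (perlecan) and LanA (laminin alpha), with transcripts over 8000 bases, averaged 183 and 107 TPM and were also highest in control 5.

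Among signals to other organs, growth-blocking peptide gene Gbp3 was highest at 613 ± 48.8 TPM, with a range of 553 to 670. CCHa2, a nutrient-dependent peptide hormone that acts on the brain, averaged 440 ± 136 TPM and was lowest in control 8 at 231. Lst, which encodes limostatin, a peptide known from endocrine cells of the corpora cardiaca, averaged 329 ± 86.0 TPM; Akh, the defining hormone of those cells, was at 0.2 to 5.4 TPM in these libraries. The insulin-like peptide gene Ilp6 averaged 12.3 TPM. In all, 13 of the 21 signal genes averaged 1 TPM or more, and the list held 0.182% of the TPM.

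The immune list held 1.18 ± 0.165% of the TPM, of which IM33 made 50.7%. NimB3 of the nimrod family averaged 944 ± 100 TPM, and PGRP-SC2, an amidase that degrades bacterial peptidoglycan, 771 ± 242 TPM. TotA, a humoral stress factor chosen after its values were seen, stood at 1344 TPM in control 7 and at 334.2 to 588 in the others. BomS3 and the lysozyme gene LysD averaged 116 and 102 TPM but stood at 488 and 468 TPM in control 3, the library with the most midgut markers; without control 3 their means were 41.7 and 28.96 TPM.

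The machinery of secretion was broadly expressed, with 119 of 125 listed genes averaging 1 TPM or more. Pdi, a protein disulfide isomerase, led at 2025 ± 430 TPM, from 1633 in control 3 to 2732 in control 8. The chaperone gene Calr averaged 1544 ± 149 TPM and the translocon subunit Sec61beta 1514 ± 91.3 TPM. The list as a whole was highest in controls 5 (2.57%) and 8 (2.53%), the libraries with the most storage protein, and 2.16 to 2.37% in the others. As a share of nucleotides it was highest in control 6 (3.10%), followed by control 8 (3.01%) and control 5 (2.96%). With 6 libraries in separate clusters no correlation is given. The separate list of chaperones and heat shock proteins held 0.914% and was led by Hsc70-4 at 1393 ± 121 TPM, Cyp1 at 1283 ± 87.9 and Fkbp12 at 933 ± 74.1.

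On the TPM scale translation took more than any other function: ribosomal proteins, translation factors and aminoacyl-tRNA synthetases together held 28.7 ± 1.48%. As a share of nucleotides translation held 19.1 ± 1.94%, against 18.6 ± 5.01% for listed secreted products. On that scale secreted products exceeded translation in controls 5 (24.4 against 16.3%) and 8 (25.5 against 17.1%) only. Of 94 cytosolic ribosomal protein genes, 79 averaged at least 1000 TPM, with a median of 2896 TPM, a lowest value of 1555 TPM and a median CV of 7.16%. Their levels moved as a block: 70 of the 79 were highest in control 6 and 61 were lowest in control 5. Of 1429 genes of at least 10 TPM with transcripts of up to 1000 bases, 282 were highest in control 6 and 358 lowest in control 5. Among factors, eEF5, which carries the hypusine residue, averaged 3020 ± 22.7 TPM and Tctp 1921 ± 96.3 TPM. The synthetases were led by AspRS at 226 ± 23.7 TPM, SerRS at 151 and HisRS at 145.

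The other 15 ribosomal protein genes, mostly second copies, fell into uneven and even ones. CVs exceeded 50% in 7 of the 15. Of the 7, RpS19b, RpS5b, RpL37-2, RpL22-like and RpS10a averaged 75.7, 69.8, 68.4, 60.9 and 27.0 TPM, where their partners RpS19a, RpS5a, RpL37-1 and RpS10b averaged 2896, 2692, 3200 and 2712 TPM and RpL22 averaged 773. These 5 copies had CVs of 51.5 to 60.3%, against 3.82 to 18.2% for the partners. They were chosen after their values were seen, and others of the 15 were even, such as RpS14b (CV 8.18%) and RpL34a (8.65%), and 5 of the 15 were highest in control 6 as most ribosomal protein genes were. Each of the 5 uneven copies was highest in control 2, where RpS19b reached 150 TPM, and lowest in control 3 or 6, where it was at 40.7 and 39.5. Many other genes had these extremes. Of the 1429 genes with transcripts of up to 1000 bases, 524 were highest in control 2, 217 lowest in control 3 and 227 lowest in control 6. Median-ratio factors were also highest in control 2 (1.17) and lowest in controls 6 (0.808) and 3 (0.873). The testis marker list was also highest in control 2 and lowest in controls 6 and 3, at 870, 137 and 142 TPM; its part in the copies' levels was not tested. Because the copies resemble their partners in sequence, reads may have been split between them, and their levels are uncertain.

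Mitochondrial functions, read from 4 lists that include some cytosolic enzymes, held 8.84 ± 0.289% of the TPM. On the TPM scale they were the most even large part of the transcriptome, with a CV of 3.27%. As a share of nucleotides their CV was 7.73%, against 7.69% for lipid, sugar and amino acid metabolism. Subunits of complex I at 100 TPM or more, 33 genes, had a median of 319 TPM, against 808 TPM for 8 genes of complex III, 1264 for 10 of complex IV and 1132 for 13 of complex V. The 4 complex II genes had a median of 293 TPM. After ATPsynC the list was led by ATPsynbeta at 3189 ± 160 TPM and cytochrome c gene Cyt-c-p at 2054 ± 207. Genes with an L suffix, copies of the standard subunits, made up most of the members under 100 TPM. No gene matched the list of mitochondrially encoded genes, so such transcripts are in none of the mitochondrial shares and were not analysed here. Carriers were led by sesB, porin at 1446 ± 69.2 TPM and Mpcp2 at 1243 ± 62.5. The list of the citric acid cycle and pyruvate entry was led by Idh at 2119 ± 506 TPM, Mdh1 at 1035 ± 76.8 and Men at 733 ± 36.4. It was matched by symbol, so a place in it does not make a gene part of the cycle. Its Mdh1 and Men are cytosolic enzymes, and Idh is a different gene from Idh3a, Idh3b and Idh3g, which are also listed. The 75 mitochondrial ribosomal protein genes all averaged over 1 TPM, with mRpL36 highest at 286.

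Sugar metabolism was led, after Adh, by Gapdh1 at 1656 ± 148 TPM and by the transaldolase gene Taldo at 1569 ± 287. Aldh, which oxidises the acetaldehyde that Adh makes, averaged 1363 ± 331 TPM and was likewise highest in control 8, at 1948. Lipid genes had fabp, a fatty acid binding protein, first at 2561 ± 208 TPM, then Lsd-1 and the acetyl-CoA synthetase gene AcCoAS at 1401 ± 146. The fatty acid synthase gene FASN1 averaged 810 ± 193 TPM. Genes of lipolysis and fatty acid oxidation held 0.459% of the TPM against 1.24% for synthesis and droplets, and their first members were scu at 711, Echs1 at 705 and Etfb at 570 TPM. Neither list bears on fluxes.

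Amino acid and one-carbon metabolism held 0.745 ± 0.0472%, with ppl, the glycine cleavage H protein, at 576 ± 65.5 TPM and Ahcy at 507 ± 88.7. Gdh, glutamate dehydrogenase, was less even, at 270 to 788 TPM with its peak in control 8. Nucleotide metabolism was led by the kinase gene awd at 2286 ± 208 TPM and by Uro at 799 ± 129. Uro encodes urate oxidase, a known Malpighian tubule enzyme, and was at 600 to 972 TPM in every library, most of the 986 to 1431 TPM of the tubule marker list. MtnA, a copper-binding metallothionein of 40 codons, averaged 3567 ± 884 TPM and was lowest in controls 5 and 8, at 2501 and 2402. Detoxification was led by Prx2 at 1292 ± 122 TPM, GstD1 at 1283 ± 195 and Cyt-b5 at 1127 ± 153. Turnover genes were lower, with the ubiquitin-conjugating enzyme gene eff at 446 ± 43.6 TPM, Prosalpha1 at 333 ± 32.8, and the proton pump subunits Vha13 and Vha16-1 at 590 ± 131 and 575 ± 89.1.

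Regulators and structural genes held little. The list of transcription and RNA binding took 0.712 ± 0.0345% and was led by the histone chaperone genes Nlp and Nap1 at 442 and 412 TPM and by crc, the fly ATF4, at 404 ± 14.5. Tubulin gene alphaTub84B led the cytoskeleton list at 930 ± 113 TPM. Act57B, a muscle actin, was at 1048 TPM in control 2 and 94.3 to 268 in the others, with a mean of 181 without control 2. Replication-independent histone genes led the histone list, with His4r at 236 and His2Av at 198 TPM.

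Cuticle and gut genes followed the 2 libraries that stood apart. The cuticle, glue and peritrophic list held 2.37% of the TPM in control 2 and 0.348 to 0.723% in the others, and its mean of 0.826% was 0.517% without control 2. The larval cuticle genes Lcp65Ab2, Lcp3 and Lcp4 stood at 5736, 3366 and 3101 TPM in control 2; their means of 1390, 766 and 720 TPM were 521, 246 and 244 without it. The protease list held 1.65% in control 3 and 0.367 to 0.555% in the others. Gut proteases Jon65Aiv and deltaTry stood at 3378 and 3089 TPM in control 3, and their means of 1119 and 956 TPM were 668 and 529 without it. CtsL1, a lysosomal cathepsin in the same list, was even at 709 ± 97.4 TPM.

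Genes in none of the lists included 28 that averaged 1000 TPM or more, 23 of which have only a CG number as symbol. CG34291 averaged 3201 ± 385 TPM and ssp7 3014 ± 672 TPM. Genes with only a CG number, listed or not, held 17.97% of the TPM. CG32198 and CG12310 varied widely, from 708 and 417 TPM in control 3 to 4651 and 3361 in control 6; both are lowest where the salivary gland list was lowest, at 673 TPM, and they were picked after their values were seen. Among RNAs that code for no protein, lncRNA:CR34335 on the X chromosome averaged 2620 ± 441 TPM, 38.2% of the long non-coding list, whose members together held 0.685% of the TPM; lncRNA:CR44459 followed at 791 ± 131. Ribosomal RNA genes held 0.1002%.

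The control libraries agreed more closely the more abundant the gene. The median CV over the 6 libraries was 24.1% for 9842 genes that averaged 1 TPM or more, 15.3% for 5143 genes of at least 10 TPM, 11.3% for 1212 genes of at least 100 TPM and 8.93% for 184 genes of at least 1000 TPM. Among the 100 most abundant, 75 had a CV under 10% and 3 a CV over 50%. By list, and among genes of at least 10 TPM, the median CV was 6.70% for oxidative phosphorylation, 7.70% for ribosomal proteins and 11.6% for the secretory route, but 58.3% for storage proteins and 136% for cuticle and glue. Across genes, Pearson's r of log2(TPM + 1) between 2 libraries was 0.901 to 0.979 and Spearman's rho 0.865 to 0.970 over 15 pairs; genes are not independent, so these describe the libraries and carry no p. The 2 lowest r values were 0.901, for control 3 with control 5 and with control 2.

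**Figure D5:**
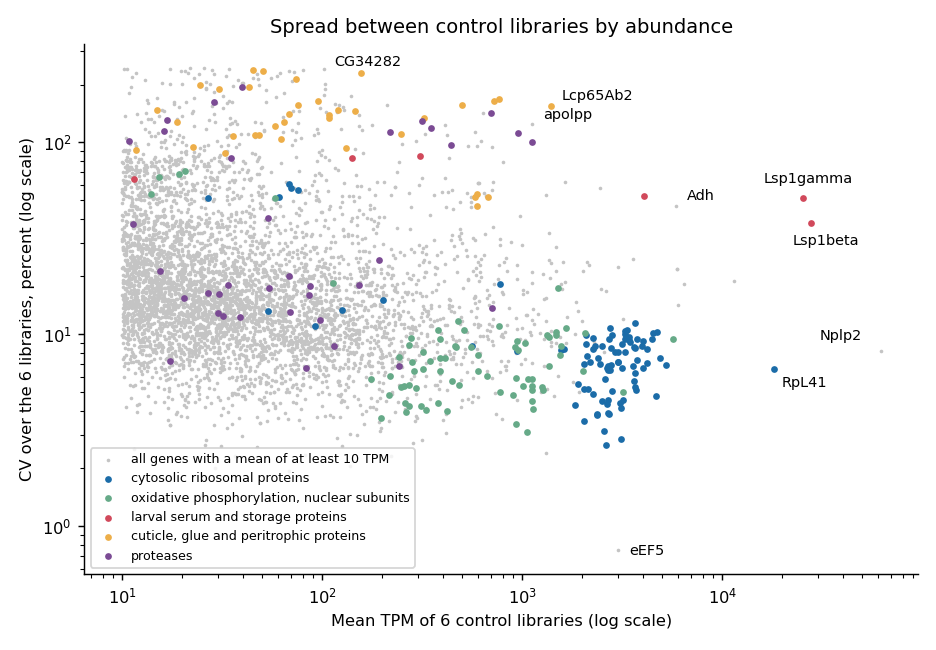
CV over the 6 control libraries (percent, log axis) against mean TPM (log axis), 1 point per gene that averaged 10 TPM or more. Ribosomal proteins (median CV 7.70%) and oxidative phosphorylation subunits (6.70%) lie low, storage proteins (58.3%) and cuticle genes (136%) high, and eEF5 is lowest at 0.751%.

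The most even gene above 100 TPM was eEF5, with 3014 TPM in control 2, 3038 in control 3, 3016 in control 5, 3007 in control 6, 3056 in control 7 and 2992 in control 8, a CV of 0.751%. That evenness holds on the TPM scale: with median-ratio scaling eEF5 ran from 2583 to 3724 TPM with a CV of 15.03%, rank 139 among the 1212 genes, whose median CV was then 20.7%. On the TPM scale it was followed by Jwa (CV 2.06%), the mitochondrial peroxiredoxin gene Prx3 (2.33%), the mitochondrial carrier homolog Mtch (2.33%) and the RNA helicase gene eIF4A (2.41%), the last at 1322 TPM. The next 10 included RpL40, Tim17b, RpL35, the iron-sulfur scaffold gene IscU and UQCR-Q, and none of the 15 had a CV above 3.08%. For each of the 15 the highest library exceeded the lowest by no more than 1.10-fold.

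The 15 least even genes above 100 TPM were each high in 1 library. CG34282 was at 601 TPM in control 3 and 0.198 to 5.24 in the others, so that its mean of 102 TPM was 2.20 without control 3. Peritrophin-15a, a protein of the gut lining, was at 896 TPM in control 3 and 1.29 to 34.2 elsewhere, and its mean was 9.19 without that library. Among the 50 least even genes, 30 were highest in control 3, 17 in control 2, 2 in control 5 and 1 in control 6. Of 1212 genes above 100 TPM, 30 in control 3 and 19 in control 2 exceeded the next highest library by over 2-fold, against at most 2 in any other library. Control 3 also held 19 genes, and control 5 12, whose level was more than 2-fold below that of every other library.

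The abundant genes were short. Among the 100 most abundant coding genes the median coding length was 153.5 codons, and 69 were under 200 codons, compared with 20.5% of the 9444 coding genes that averaged 1 TPM or more, whose median was 403 codons. Without cytosolic ribosomal proteins the 100 most abundant still had a median of 195 codons and 51 genes under 200. A single exon was found in 3 of the 100, in 11 of the 100 without cytosolic ribosomal proteins, and in 12.2% of expressed coding genes. Weighted by transcript length, as a share of nucleotides, the order changed: Lsp1beta came first at 5.83%, Lsp1gamma second at 4.93% and Nplp2 next at 2.26%, storage proteins held 11.6 ± 4.06% and ribosomal proteins 15.1 ± 2.01%.

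By chromosome arm, 65.8 to 71.2% of coding genes averaged at least 1 TPM. The median expressed gene on the X chromosome stood at 0.801 to 0.863 of the autosomal median in the 6 libraries. Chromosome 4, a small chromosome with 52 expressed coding genes that include apolpp and ATPsynbeta, differed most between libraries. Its median gene was at 21.1 and 19.9 TPM in controls 5 and 8 and at 6.10 to 11.9 TPM in the other 4, and 41 of the 52 genes were highest in control 5 or 8. Such peaks go with length: among genes of at least 10 TPM on all chromosomes, control 5 was highest for 103 of 114 genes over 5000 bases. Among 1429 such genes of up to 1000 bases, 66 were highest in control 5 and 60 in control 8. Of the 52 genes, 31 have transcripts over 3000 bases, and the part of length in the count of 41 was not tested. The share of all expressed coding genes that were highest in control 5 or 8 is not given, so that count has no baseline. Chromosome 4 genes have long transcripts, with a median of 3345 bases against 1603 to 1852 on the other arms. After scaling within length groups, their median deviation was still 0.35 in control 5 and 0.39 in control 8, against -0.52 in control 6. On the other arms it was 0.022 to 0.053 in control 5 and -0.083 to -0.071 in control 8.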

How the data were processed

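The values are TPM per RefSeq transcript from a table the authors deposited. Per the labels, fat bodies were frozen, RNA was taken up in Trizol, and libraries were made with a directional kit. The submitters' processing notes name sleuth; which program quantified transcripts, against which build, is not given in the sources used here. TPM keeps no depth, so no counting error is given, and whether strand was used in counting is unknown.

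Transcripts were named by accession through a RefSeq gene table (99.5% of 34213), and TPM were summed to 17139 genes. Transcript and coding lengths came from the Ensembl annotation BDGP6.54, by symbol, for 99.9% of genes that averaged 1 TPM or more. Genes that share every value with another (128) are uncertain. Lists were matched by symbol, the first match deciding. Shares, means, SDs and CVs are over 6 libraries, computed with pandas and tested on simulated data. The rule for named genes was the 30 most abundant, the 3 highest of each list, the 15 highest and 15 lowest CVs above 100 TPM, and the markers. Other genes, such as Aldh, Mtp, TotA and Hsp70Aa, were named outside this rule, some of them after their values were seen. The members and lists were chosen with earlier results of these data known. Every control library was used.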

Additional observations from a re-analysis of the deposited data

Results flagged for a closer look

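For 26 of 201 sets of 6 values, 1 library lay so far from the nearest of the others, relative to the whole range, that it passed Dixon's 95% limit for 6 values. Chance alone does this in about 1 in 20 sets, and the sets share genes and libraries, so the count is not a test.

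Control 2 was the distant library in 10 sets. Muscle markers summed to 3632 TPM and disc and cuticle markers to 7923 TPM there, Act57B was at 1048, Lcp65Ab2 at 5736, Lcp3 at 3366 and Lcp4 at 3101 TPM. The cuticle list held 2.37% and the cytoskeleton list 1.02% of its TPM, against at most 0.723 and 0.707% in the others. Lower than elsewhere in it were 2 lists, detoxification at 1.35% and mitochondrial carriers at 1.11%, against at least 1.47 and 1.19% elsewhere.

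Control 3 was the distant library in 10 sets. Midgut markers summed to 10118 TPM, Jon65Aiv was at 3378, deltaTry at 3089, Peritrophin-15a at 896, CG34282 at 601, BomS3 at 488 and LysD at 468 TPM, and the protease list held 1.65%. The yolk protein gene Yp3 was also highest there, at 25.5 TPM against 5.16 to 12.7, and the transcription and RNA binding list was low at 0.648%.

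Control 8 stood apart in Adh (11124 TPM), Lsp1alpha (803 TPM) and Fbp1 (1.22 TPM). Control 7 stood apart in TotA, at 1344 TPM. Control 6 stood apart in the ribosomal protein genes RpL35 (3270 TPM) and RpL40 (2767 TPM), whose values elsewhere differed by less than 3%. Controls 5 and 8 form a pair in apolpp, storage proteins and Hsp70Aa, a shape that this rule cannot pick out.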

How the results depend on the processing

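Of 720 alternative values for 72 results, 660 moved by less than the spread between libraries (for counts of genes, by less than 1.5 times). A share or gene mean cannot move by a full SD when 1 or 2 libraries are left out or the median is taken. Such settings were bound to pass, so the count of 660 is no measure of robustness. As a share of nucleotides, ribosomal proteins held 15.1%, lipid carriers 3.42%, storage proteins 11.6%, oxidative phosphorylation 4.23% and the secreted sum 18.6%; this weights each gene by its length. Without storage proteins in the total, oxidative phosphorylation held 6.33%. With only the highest transcript of each gene, the 30 most abundant held 21.5%. The median CV of 15.3% was 14.4 to 16.1% without 1 library, 19.8% with median-ratio scaling, 24.1% from 1 TPM, 11.3% from 100 TPM, 14.2% scaled within transcript-length groups and 14.4% without controls 2 and 3. Median-ratio factors ran from 0.808 in control 6 to 1.17 in control 2; with them Nplp2 had a CV of 19.6% in place of 8.16%, and 79 of the 79 abundant ribosomal protein genes were highest in control 6, against 61 after scaling within length groups. The median r of 0.941 was 0.967 with no filter, which adds genes near 0 in all libraries. Among the 200 most abundant coding genes 58% were under 200 codons. Without 1 library, storage proteins held 5.03 to 6.18% and the cuticle list 0.517 to 0.922%. The nucleotide, length-group and no-storage alternatives, and the median CV without controls 2 and 3, were chosen after seeing the data. The signal peptide and promoter descriptions were not run. No paired analysis was possible because only 1 group was described and no test was made. Depth, and with it the counting error of low genes, is unknown.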
